A study of Mus musculus with 6 samples.

Results

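A set of 10 genes that regulate ferroptosis and iron was followed in H22 tumours that had become resistant to lenvatinib. They were chosen by name from the deposited table of 20482 genes, and all 10 were found there. Gpx4, Slc7a11 and Aifm2 belong to the defence against lipid peroxides. Acsl4 and Lpcat3 supply the lipids that are oxidised. Tfrc, Fth1, Ftl1, Slc40a1 and Ncoa4 take up, store, release or export iron. All 10 passed the filter on low counts and were among the 14392 genes tested.

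H22 is a mouse hepatocellular carcinoma line. In the study, 1000000 H22 cells were placed under the skin of male C57BL/6 mice that were 6 weeks old and labelled wild type. The 3 resistant tumours (H22-LR) grew in mice that received lenvatinib (a drug that blocks VEGF and FGF receptors, among other kinases) at 100 mg/kg per day into the peritoneum, 2 days a week for 2 cycles. The 3 sensitive tumours (H22-NR) came from control mice, for which the labels name lenvatinib as well as PBS with DMSO, and the treatment field of all 6 tumours reads as untreated. The drug and the resistance therefore cannot be told apart, and groups follow the sample titles.

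Ferroptosis is a form of cell death that depends on iron and on the peroxidation of polyunsaturated fatty acids in membrane phospholipids. GPX4 reduces the lipid peroxides with glutathione, whose synthesis needs cystine brought in by SLC7A11, and AIFM2 (also called FSP1) regenerates ubiquinol as a separate radical trap. Iron enters on transferrin through TFRC, is held in ferritin, is freed when NCOA4 carries ferritin to the lysosome, and leaves through ferroportin, the product of Slc40a1. Iron regulatory proteins bind hairpins in several of these RNAs. Bound at the 5′ end they hold back translation, and bound at the 3′ end of Tfrc RNA they protect it from decay.

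Those hairpins, the iron-responsive elements, are a feature that the choice of genes did not use. They are shown because they are known from several of the iron genes, at the 5′ or the 3′ end. Coding transcripts of GENCODE were searched on the sense strand for a C, 5 bases, the loop CAGTGN and 5 more bases, where the bases before the loop had to pair with those after it (G-U pairs allowed). For all genes, only the coding transcript with the longest such region was searched, and for members every coding transcript. In the 5′ untranslated region the hairpin was found in 20 of 16153 genes (0.124%). Among members it was in Fth1 (4 of 5 coding transcripts with that region), Ftl1 (1 of 2) and Slc40a1 (1 of 4). In the 3′ untranslated region it was found in 106 of 16216 genes (0.654%). Among members, Tfrc held 4 copies, each in 1 of 2 transcripts. The other 6 members held none in either region. Each site is printed with 6 bases on either side, and the capitals mark the bulged C and the loop.
Fth1: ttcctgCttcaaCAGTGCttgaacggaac
Ftl1: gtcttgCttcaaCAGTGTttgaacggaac
Slc40a1: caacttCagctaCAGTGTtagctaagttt
Tfrc, copy 1: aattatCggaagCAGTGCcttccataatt
Tfrc, copy 2: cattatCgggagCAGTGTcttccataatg
Tfrc, copy 3: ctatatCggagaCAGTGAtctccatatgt
Tfrc, copy 4: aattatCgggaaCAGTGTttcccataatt
In build GRCm38 they lie at chr19:9982732-9982760 (plus strand), chr7:45459779-45459807 (minus), chr1:45925465-45925493 (minus), and, for Tfrc on the plus strand, chr16:32631219-32631247, chr16:32631598-32631626, chr16:32631663-32631691 and chr16:32631710-32631738. The Fth1 and Ftl1 sites differed at 3 of 29 bases, and those of Fth1 and Slc40a1 at 16. A match is a description of the letters, and these data measure RNA level, not translation.

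Total counts per tumour ran from 15995403 to 17545098, a ratio of 1.10, and 3 counts corresponded to 0.171 to 0.188 CPM (counts for each 1000000, after TMM scaling where values of genes are given). The totals of the sensitive group were all the larger ones. Of the 10 hepatocyte and liver tumour markers, summed CPM ran from 682 to 863 in sensitive and from 841 to 1260.5 in resistant tumours, while 4 of the markers had a fold change above 0 and 6 below, with a median log2 fold change of -0.23. The keratin genes Krt8 (144 to 191 against 236 to 429 CPM) and Krt18 (283 to 441 against 423 to 666 CPM) made up most of the sum. Alb, the albumin gene, lay the other way, at 167 to 198 CPM in sensitive and 112 to 121 CPM in resistant tumours, as did Ttr, at 5.998 to 6.38 against 3.46 to 5.83 CPM. Hnf4a, which encodes a defining transcription factor of hepatocytes, stood at 0.716 to 2.68 CPM over the 6 tumours. Sensitive tumour 2 stood apart, with 12140.4 CPM summed over 8 B and plasma cell markers against 13.3 to 198 CPM elsewhere, and 519 CPM over 10 T cell markers against 10.9 to 52.4. Summed muscle markers ran from 1.71 to 1219 CPM in sensitive and from 2.68 to 249.7 CPM in resistant tumours, fibroblast markers from 1842 to 4209 and from 2219 to 6835, endothelial markers from 199 to 494 and from 134 to 231, and neutrophil markers from 30.2 to 141 and from 25.1 to 98.6. In these whole tumours, fewer cells of a type and less RNA per cell cannot be told apart. Nothing in the labels says that the tumours were processed in batches.

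The 10 genes showed no shared direction. In resistant tumours the log2 fold change was above 0 for 3 genes and below 0 for 7, with a median of -0.13 beside -0.02 over all 14392 genes. Of all genes tested, 6811 lay above 0 and 7581 below. By edgeR's quasi-likelihood test with Benjamini-Hochberg adjustment none of the 10 passed an adjusted p of 0.05, where the background was also 0% (0 of 14392). At an unadjusted p under 0.05 there were 2 of the 10, beside 1404 genes or 9.76% overall. They were Gpx4, higher in resistant tumours as were 4.02% of all genes, and Slc7a11, lower as were 5.73%. DESeq2 called 108 genes (0.721%), of which 36 were higher (0.240%) and 72 lower (0.481%). The exact test of edgeR called 42 (0.292%), 11 of them higher (0.0764%) and 31 lower (0.215%), and limma-voom called none. None of these called a member. Gpx4 and Slc7a11 were also the members without overlap between groups, beside 16.0% of all genes tested, 8.41% with every resistant tumour above and 7.54% with every one below.

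**Figure D1:**
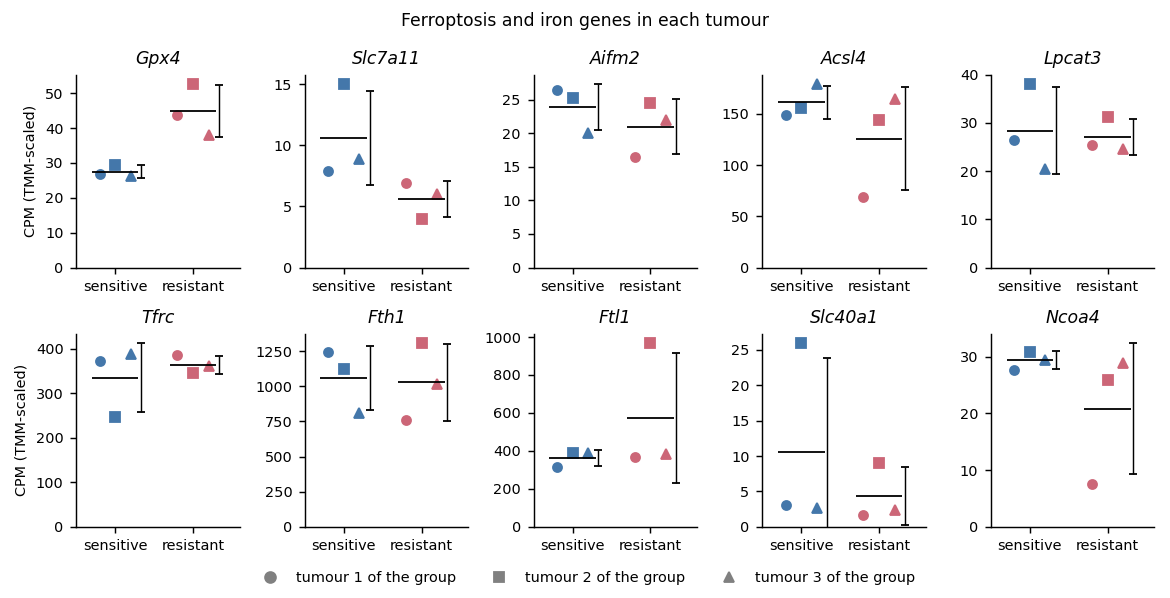
CPM scaled by TMM (vertical axis, from 0, a separate scale for each gene) of the 10 genes in the 3 sensitive (blue) and 3 resistant (red) tumours, with the replicate number as the marker shape. Horizontal lines are group means and bars 1 SD, the sensitive bar of Slc40a1 being drawn only down to 0. The groups separate for Gpx4 and Slc7a11, while Ftl1, Slc40a1 and Ncoa4 each have a single tumour far from the rest.

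Gpx4, the selenium-containing peroxidase at the centre of the defence (ENSMUSG00000075706, GRCm38 chromosome 10, 80047166 to 80056439), was measured at 26.8, 29.5 and 26.2 CPM in sensitive tumours 1 to 3 and at 43.7, 52.7 and 37.9 CPM in resistant tumours 1 to 3. Every resistant tumour lay above every sensitive one. The means were 27.5 ± 1.80 and 44.8 ± 7.45 CPM (SD, n = 3 each), a 1.63-fold difference. On the log2 scale this was 0.70 ± 0.18 (SE). The adjusted p was 0.510 by edgeR and 0.0927 by DESeq2, so Gpx4 did not pass in either. Leaving out single tumours gave log2 fold changes from 0.58 to 0.81. Gpx4 has a short, GC-rich transcript (995 bases, 60.2% GC), and corrected for transcript length and GC content its log2 fold change was 0.45, over 1.5 times smaller.

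Slc7a11, the cystine importer (ENSMUSG00000027737, chromosome 3, 49892526 to 50443614), was low throughout. It stood at 7.87, 15.0 and 8.91 CPM across the sensitive group and at 6.90, 4.00 and 6.00 CPM across the resistant group. The groups did not overlap, but sensitive tumour 1 lay just above resistant tumour 1, and sensitive tumour 2 was the highest. In sensitive tumour 2, 16.1% of all genes tested lay as far above the others. Between the groups the log2 fold change came to -0.91 ± 0.37 (adjusted p = 0.510, edgeR). It was -0.57 without sensitive tumour 2, over 1.5 times smaller. On the log2(FPKM + 1) scale, which understates changes of low genes, it was -0.27. Slc3a2, which encodes the heavy chain that holds SLC7A11 in the membrane, lay the other way, at 479, 260.3 and 472 CPM in sensitive and 617, 514 and 492 CPM in resistant tumours, with no overlap. Its log2 fold change was 0.42 ± 0.26 (adjusted p = 0.561, edgeR). Sensitive tumour 2 was the low one for Slc3a2, with 472 to 617 CPM in the other 5. Resistant tumour 3 lay just above sensitive tumour 1.

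Aifm2 (ENSMUSG00000020085, chromosome 10, 61715263 to 61739260) stood at 26.5, 25.3 and 20.0 CPM in sensitive and at 16.5, 24.5 and 21.9 CPM in resistant tumours. The groups overlapped, and the log2 fold change of -0.19 ± 0.22 was smaller than its error (adjusted p = 0.752, edgeR). Without resistant tumour 1 it was -0.04. Its exons overlap those of H2afy2 on the opposite strand, which had 113 counts over the 6 tumours beside 2260 for Aifm2. No source used here states whether the counting used strand, so such reads cannot be assigned.

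Acsl4 links long polyunsaturated fatty acids to coenzyme A, the step that commits them to phospholipids (ENSMUSG00000031278, chromosome X, 142317993 to 142390535). It stood at 149, 156 and 179 CPM across the sensitive group and at 69.0, 144 and 165 CPM across the resistant group. Resistant tumour 1 was alone in its low value, and the other 5 ran from 144 to 179 CPM. As far below the others in that tumour were 12.8% of all genes tested. Between the groups the log2 fold change came to -0.36 ± 0.31 (adjusted p = 0.666, edgeR) and -0.06 without that tumour. Set against each other in FPKM, which is per kilobase, Acsl4 to Gpx4 stood at 2.45, 2.32 and 3.01 in sensitive and at 0.692, 1.20 and 1.91 in resistant tumours. The ratio was thus lower in every resistant tumour, with means of 2.59 ± 0.370 and 1.27 ± 0.612 (SD, n = 3 each). It was lowest in resistant tumour 1, where Acsl4 was low, and it was not tested. Corrected for transcript length and GC content, the log2 fold changes of both genes were nearer 0, at -0.17 for Acsl4 and 0.45 for Gpx4. The ratio carries no such correction.

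Lpcat3 places polyunsaturated fatty acids into phospholipids (ENSMUSG00000004270, chromosome 6, 124663027 to 124704418). Its values of 26.5, 38.1 and 20.4 CPM in sensitive tumours enclosed those of 25.4, 31.3 and 24.6 CPM in resistant ones. The log2 fold change of -0.07 ± 0.26 had an adjusted p of 0.932 by edgeR, and it was 0.21 without sensitive tumour 2. Exons of Emg1 on the opposite strand overlap it and carried 11292 counts over the 6 tumours beside 2790 for Lpcat3, so part of its count may belong to either gene.

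Tfrc, the transferrin receptor (ENSMUSG00000022797, chromosome 16, 32608920 to 32632794), had readings of 372, 247 and 388 CPM in the sensitive and of 385, 345 and 363 CPM in the resistant tumours. Sensitive tumour 2 was the low one, and the remaining 5 ran from 345 to 388 CPM. In sensitive tumour 2, 14.2% of all genes tested lay as far below the others. Between the groups the log2 fold change came to 0.12 ± 0.19 (adjusted p = 0.827, edgeR) and -0.061 without sensitive tumour 2. Aco1 and Ireb2 encode the proteins that bind the hairpins. Aco1 had a log2 fold change of 0.09 ± 0.12 and Ireb2 one of -0.18 ± 0.13, neither of which passed.

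Ferritin is built from a heavy and a light chain, whose RNAs carry nearly the same hairpin. Fth1, the heavy chain with the iron-oxidising centre (ENSMUSG00000024661, chromosome 19, 9980598 to 9985098), stood at 1245, 1125 and 809 CPM in sensitive and at 758, 1308 and 1017 CPM in resistant tumours. The groups overlapped fully. Their log2 difference was -0.04 ± 0.27, for which edgeR gave an adjusted p of 0.959. The sign turned with library-size scaling (0.041), on both FPKM scales (0.030 each), and without sensitive tumour 1 (0.11), sensitive tumour 2 (0.0015) or resistant tumour 1 (0.14). Related gene models listed in the table had few counts over the 6 tumours (10 for Fth-ps2, 6 for Fthl17f and 2 for Fthl17-ps2), beside 104865 for Fth1.

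Ftl1, the light chain that helps iron mineralise inside ferritin (ENSMUSG00000050708, chromosome 7, 45457944 to 45459884), was measured at 317, 388 and 389 CPM in sensitive tumours and at 368, 968 and 385 CPM in resistant ones. Resistant tumour 2 was 2.51 times the median of the other 5, which ran from 317 to 389 CPM. As far or further above the others in that tumour were 2.22% of all genes tested. The log2 fold change over the groups was 0.65 ± 0.39 (adjusted p = 0.558, edgeR). Without resistant tumour 2 it was 0.06, so the group difference rested on that tumour. With the length and GC correction it was 0.41. The ratio of Ftl1 to Fth1 in FPKM stood at 0.0780, 0.106 and 0.147 in sensitive and at 0.149, 0.227 and 0.116 in resistant tumours. A close copy that GENCODE names Ftl1-ps1 and the table lists as Gm10116 had 17.2% as many counts as Ftl1, and reads may be split between them. It was also highest in resistant tumour 2, at 128.5 CPM, with 51.1 to 86.1 CPM elsewhere.

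Hmox1, the heme oxygenase that frees iron from heme, stood apart in the same tumour. It was read at 204, 177 and 106 CPM in sensitive tumours and at 159, 640.1 and 148 CPM across the resistant group. Its log2 fold change was 0.96 ± 0.61 (adjusted p = 0.573, edgeR). Macrophages take up old red cells and recycle their iron. Over 14 macrophage markers, summed CPM was 2053 in resistant tumour 2 and 607 to 1620 in the others, and of 13 tested 7 had a fold change above 0 and 6 below. The sum ran from 778 to 1620 CPM in sensitive and from 607 to 2053 CPM in resistant tumours. Among them Cd163, the receptor for haemoglobin bound to haptoglobin, stood at 209 CPM in resistant tumour 2 and at 15.9 to 60.2 CPM elsewhere. Mrc1, the mannose receptor, stood at 503 CPM there and at 84.6 to 247.6 CPM elsewhere. Of the red cell markers, 9 of 11 were in the table, and their sum was 105 CPM in resistant tumour 2, 91.0 CPM in resistant tumour 3 and 18.4 to 35.3 CPM in the other 4. The fibroblast sum was also highest in resistant tumour 2, at 6835 CPM, with 1842 to 5415 CPM elsewhere. No sum of a further cell type was highest there. The part of any of these cells in the Ftl1 value was not tested.

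Slc40a1, ferroportin (ENSMUSG00000025993, chromosome 1, 45908068 to 45926523), was near the bottom of the measured range except in tumours numbered 2. It stood at 3.10, 26.0 and 2.68 CPM in sensitive and at 1.66, 9.07 and 2.44 CPM in resistant tumours. Sensitive tumour 2 was 9.67 times the median of the other 5. As far above the others in that tumour were 2.12% of all genes tested. The log2 fold change of -1.27 ± 1.07 (adjusted p = 0.657, edgeR) turned to 0.60 without that tumour and was -2.36 without resistant tumour 2. The macrophage sum in sensitive tumour 2 was 1620 CPM, with 607 to 2053 CPM in the others. The scavenger receptor gene Marco stood at 173 CPM in that tumour and at 2.40 to 28.4 CPM elsewhere, and Timd4, a receptor for dying cells, at 112 CPM against 0.476 to 4.40. Clec4f, a defining marker of liver macrophages, was at 0.537 CPM or less in every tumour. Of the macrophage list, only Marco, Timd4, Csf1r, Mertk and Clec4f were highest in sensitive tumour 2, and the rest were highest in another tumour. The sums of B and plasma cell, T cell, neutrophil and endothelial markers were also highest in sensitive tumour 2. The part of any of these cells in the Slc40a1 values was not tested. Cd163, Mrc1, Marco, Timd4, Csf1r, Mertk and Clec4f are members of the macrophage list. Like Alb, Hnf4a, Ttr, Krt8 and Krt18 in theirs, they were picked out after their values were seen.

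**Figure D2:**
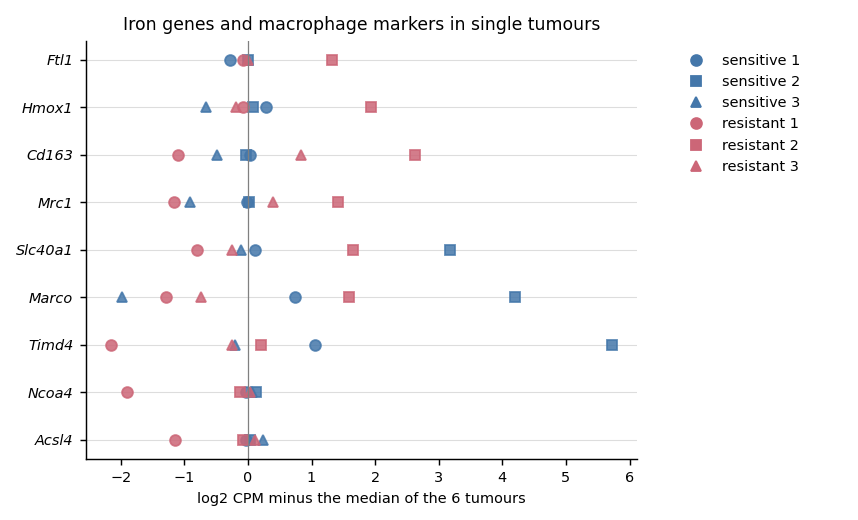
Log2 CPM of members, Hmox1 and 4 macrophage markers, each centred on its median over the 6 tumours (horizontal axis), with colour for the group and marker shape for the replicate number. Resistant tumour 2 lies to the right for Ftl1, Hmox1, Cd163 and Mrc1, sensitive tumour 2 for Slc40a1, Marco and Timd4, and resistant tumour 1 to the left for Ncoa4 and Acsl4.

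Ncoa4, the receptor that delivers ferritin to the lysosome (ENSMUSG00000056234, chromosome 14, 32159865 to 32179855), was even in 5 tumours and low in the other. It was read at 27.7, 30.8 and 29.5 CPM in sensitive tumours and at 7.61, 26.0 and 29.0 CPM in resistant ones. Resistant tumour 1 held 128 counts where the others held 435 to 517, a level 3.81 times below the median of the other 5. As far below the others in that tumour were 5.49% of all genes tested. The log2 fold change was -0.49 ± 0.46 (adjusted p = 0.688, edgeR) and -0.09 without resistant tumour 1. Acsl4, Aifm2, Fth1 and Slc40a1 were also lowest in this tumour. How many of all genes tested were lowest there was not counted.

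Among the marker sums, those of fat cells, macrophages, neutrophils, endothelium and B and plasma cells were each lowest in resistant tumour 1. Those of red cells, T cells, muscle and fibroblasts were not, and the hepatocyte and liver tumour sum was highest there, at 1260.5 CPM. Over 8 fat cell markers, summed CPM was 75.7 there, with 809.7 to 3789.9 in sensitive and 75.7 to 1309 in resistant tumours. The macrophage sum was 607 CPM there and 778 to 2053 in the others. Trf, the transferrin gene, stood at 46.6 CPM in that tumour and at 107 to 207 CPM in the other 5, and the metalloreductase gene Steap4 at 17.3 CPM against 61.2 to 232. The part of host tissue in the Ncoa4 and Acsl4 values was not tested.

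**Figure D3:**
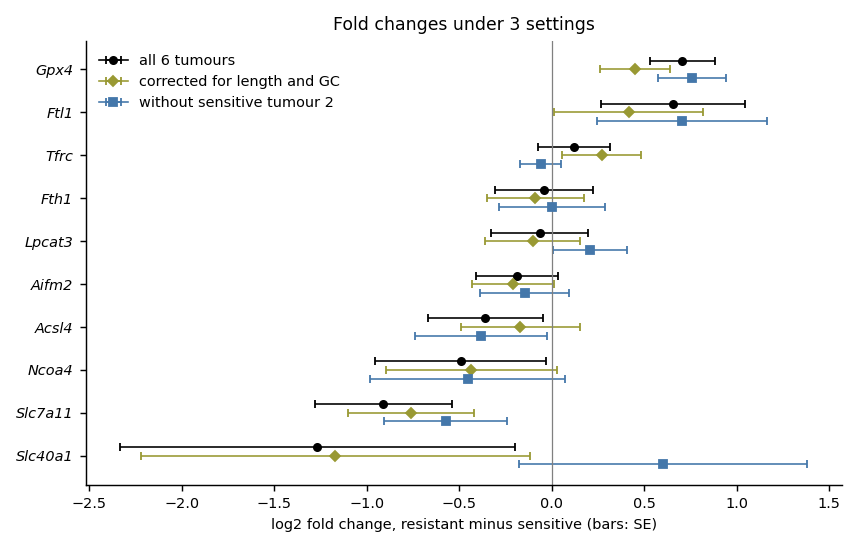
Log2 fold change of each member, resistant minus sensitive (horizontal axis), in the fit to all 6 tumours (black), with correction for transcript length and GC content (olive) and without sensitive tumour 2 (blue). Bars are 1 SE. Gpx4 stays above 0 under all 3 settings, while Slc40a1 changes from -1.27 to 0.60 without sensitive tumour 2.

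Between genes, levels were compared per length, in the deposited FPKM. Fth1 led at 896 to 1521 FPKM over the 6 tumours, and Ftl1 followed at 103 to 345 FPKM, with no overlap. Next was Tfrc at 25.1 to 40.9 FPKM. Its range overlapped that of Acsl4 (11.1 to 28.3 FPKM), which overlapped that of Gpx4 (8.78 to 18.9 FPKM). Aifm2, Lpcat3 and Ncoa4 overlapped one another between 1.12 and 6.10 FPKM. Slc7a11 (0.257 to 0.939 FPKM) and Slc40a1 (0.158 to 2.36 FPKM) were at the bottom and overlapped.

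This order rests on the lengths behind the FPKM. Counts divided by FPKM gave a length of 2826 bases for Ftl1, 2805 for Gpx4 and 866 for Fth1, where the longest GENCODE transcripts have 968, 995 and 2062 bases. Expressed as CPM per kilobase of the longest transcript, Fth1 (368 to 634) and Ftl1 (327 to 1000.1) overlapped, and Gpx4 (26.3 to 53.0) came above Acsl4 (13.1 to 34.0), also with overlap. The length divisor cancels when FPKM of a gene are compared between tumours.

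By the likeness of their profile to that of Gpx4, the member with the smallest p, Snhg20, Hist1h2bh and Trim13 came closest among named genes. The measure was the root mean square difference of log2 CPM, with a small constant added before the log, centred over the 6 tumours. It was 0.11 for Snhg20 and 0.12 for both others. Genes chosen this way share the pattern of Gpx4 by the choice itself. How many genes lay about as near was not counted. The constant shrinks differences of low genes such as Hist1h2bh, whose log2 fold change by edgeR was 0.94. Snhg20 stood at 21.4, 23.0 and 25.4 CPM in sensitive and at 33.6, 43.6 and 30.7 CPM in resistant tumours. Trim13 and Hist1h2bh were lower, at 2.97 to 6.66 CPM and at 0.743 to 2.21 CPM.

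Further genes of the pathway were taken from 6 lists, of which 98 genes were tested. No gene of these lists passed edgeR's quasi-likelihood test in either direction, with a background of 0%. At an unadjusted p under 0.05 there were 12 of them, beside 9.76% of all genes. The groups did not overlap in 2 of 11 tested genes of glutathione supply, 3 of 15 of defence outside GPX4 and 2 of 20 of lipid supply. The counts were 3 of 19 for iron transport, 2 of 19 for iron sensing and 2 of 14 for regulators. Over all genes tested the share was 16.0%. For the direction counts that follow, 6811 of the 14392 genes tested had a fold change above 0 and 7581 below.

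Genes that supply glutathione and thiols (11 of 13 tested) had 7 fold changes above and 4 below 0, with a median log2 fold change of 0.10. Cth, which makes cysteine from cystathionine, stood at 2.29, 2.39 and 1.43 CPM in sensitive and at 1.19, 1.13 and 0.832 CPM in resistant tumours, without overlap (log2 fold change -0.95 ± 0.42, adjusted p = 0.515, edgeR). The glutamine carrier gene Slc1a5 had a log2 fold change of -0.44 ± 0.21, and Gclm, the modifier subunit of the first enzyme of glutathione synthesis, one of 0.24 ± 0.17. None of these passed.

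Radical-trapping defences outside GPX4 (15 of 16 tested) had 11 fold changes above and 4 below 0, with a median of 0.11. Within the synthesis of tetrahydrobiopterin, an antioxidant cofactor, Gch1 and Pts lay in opposite directions and Spr was near 0 (log2 difference 0.05 ± 0.29). None of them passed. Gch1, the first, stood at 21.8, 24.3 and 28.5 CPM among sensitive tumours against 38.0, 34.4 and 27.8 CPM, with overlap (log2 difference 0.43 ± 0.20, adjusted p = 0.516, edgeR). Pts, the next, had 20.6, 28.5 and 20.6 CPM against 17.1, 17.4 and 13.8 CPM (log2 difference -0.53 ± 0.22, adjusted p = 0.510, edgeR). Vkorc1l1, which reduces vitamin K, had one of -0.66 ± 0.31, and Dhcr7, whose substrate is a sterol that traps radicals, one of 0.27 ± 0.17.

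Genes of lipid supply and oxidation (20 of 22 tested) had 11 fold changes above and 9 below 0, with a median of 0.04. The 2 stearoyl-CoA desaturase genes, whose products make the monounsaturated fatty acids that resist peroxidation, lay apart. Scd2 stood at 258, 334 and 254 CPM in sensitive and at 371, 408 and 498 CPM in resistant tumours, without overlap (log2 fold change 0.59 ± 0.18, adjusted p = 0.510, edgeR). Scd1 stood at 3461, 4647 and 1221 CPM and at 215, 1518 and 1016 CPM (log2 difference -1.76 ± 0.77, with overlap). The fat cell sum given above was also lowest in resistant tumour 1, where Scd1 was lowest, and its part in the Scd1 value was not tested. Sat1, a polyamine enzyme, had a log2 fold change of 0.54 ± 0.20 and Fads2, a desaturase of polyunsaturated fatty acids, one of -1.12 ± 0.56.

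Of the iron transport and storage list 19 of 22 genes were tested, with 8 fold changes above and 11 below 0 and a median of -0.07. Slc39a14, an importer of iron that is not bound to transferrin, stood at 64.3, 49.3 and 58.8 CPM in sensitive and at 67.8, 117 and 75.3 CPM in resistant tumours. Those groups did not overlap (log2 fold change 0.60 ± 0.24, adjusted p = 0.510, edgeR), though sensitive tumour 1 and resistant tumour 1 were close. Steap4 had a log2 fold change of -1.52 ± 0.63, Heph, the oxidase that works beside ferroportin, one of -1.37 ± 0.69, and Lcn2, which binds iron-carrying siderophores, one of -1.03 ± 0.69. Trf had one of -0.35 ± 0.52. Hamp, the hormone hepcidin that degrades ferroportin, was low, at 1.74 to 2.86 CPM in sensitive and 1.96 to 2.32 CPM in resistant tumours.

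Of the genes for iron sensing, heme turnover and iron-sulfur clusters 19 of 20 were tested, with 11 fold changes above and 8 below 0 and a median of 0.05. Cisd1, an iron-sulfur protein of the outer mitochondrial membrane, stood at 29.5, 24.2 and 30.5 CPM in sensitive and at 45.5, 37.7 and 42.9 CPM in resistant tumours. Its groups did not overlap, and the log2 fold change was 0.58 ± 0.17 (adjusted p = 0.510, edgeR). Alas1, the first enzyme of heme synthesis outside red cells, had a log2 fold change of -0.60 ± 0.24, and Glrx5, an iron-sulfur cluster carrier, one of 0.54 ± 0.23. The mitochondrially encoded genes had fold changes below 0 in 13 of 13, with a median of -0.92, or -0.35 without sensitive tumour 1. They took 8.08% to 16.4% of counts in sensitive and 5.60% to 8.11% in resistant tumours, and their part in these values was not tested.

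Regulators and stress genes named in work on ferroptosis (14 of 15 tested) had 11 fold changes above and 3 below 0, with a median of 0.18. Nfe2l2, which encodes the antioxidant regulator NRF2, stood at 162, 167 and 149.7 CPM in sensitive and at 129, 158 and 147 CPM in resistant tumours (log2 difference -0.14 ± 0.12). Atf4, the regulator of the amino acid response and known to drive Slc7a11, stood at 466, 351 and 598 CPM against 772, 572 and 610.0 CPM (log2 difference 0.47 ± 0.23). Its target Trib3 had one of 0.91 ± 0.38. Ddit4, an inhibitor of mTOR signalling, stood at 15.6, 18.0 and 21.2 CPM against 32.8, 62.9 and 21.4 CPM (1.10 ± 0.40), with sensitive tumour 3 and resistant tumour 3 nearly level. The small heat shock gene Hspb1 had a log2 fold change of 0.88 ± 0.34.

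**Figure D4:**
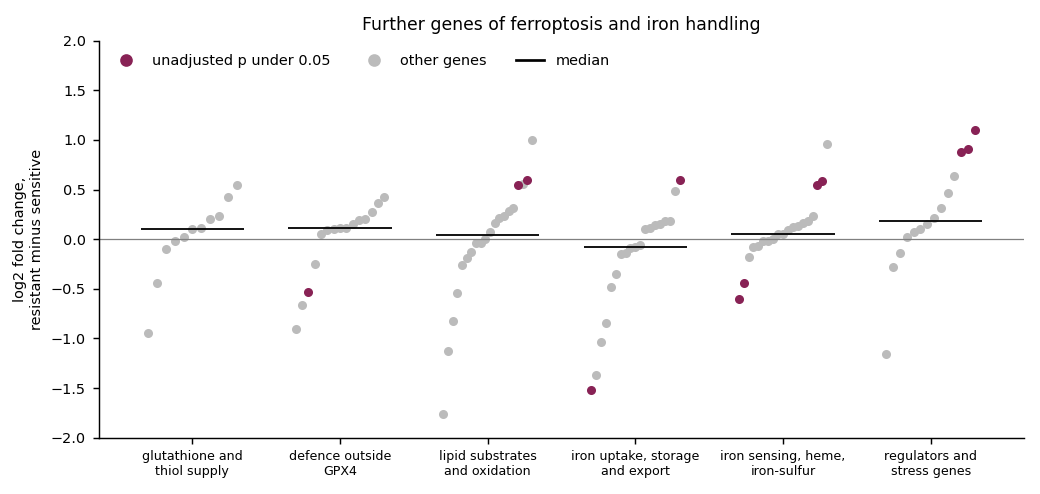
Log2 fold change, resistant minus sensitive (vertical axis), of each tested gene in the 6 further lists, sorted within its list. Dark points have an unadjusted p under 0.05, lines are list medians, and the medians lie between -0.07 and 0.18.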

How the data were processed

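RNA of 6 tumours was sequenced after TRIzol extraction, with a Vazyme VAHTS Universal V6 library kit, per the labels' protocols. HISAT2, StringTie and edgeR appear in the submitters' processing notes without version or role. Not given in the sources used here: genome build, annotation, strand, and how reads matching several places were counted. Both tables were deposited by the authors, whole-number read counts per gene in the first and FPKM in the second, per the file headers. Among 5442 well-counted genes (500 or more), the ratio of count to FPKM changed from tumour to tumour by the same factor for every gene, with deviations up to a relative 1.73e-06. Coordinates and transcripts came from GENCODE release M21 (GRCm38), which holds 99.4% of the table's gene identifiers. No row lacks a gene. Spreadsheet dates in place of 24 symbols were restored by identifier.

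For the comparison, resistant against sensitive, the deposited counts went into edgeR 4.0.16 under R 4.3.3 (filterByExpr, TMM scaling, quasi-likelihood F-test, no block), with Benjamini-Hochberg adjustment over all 14392 genes tested and a threshold of 0.05. CPM values use TMM-scaled library sizes. Each SE is the size of the log2 fold change divided by the square root of F. The design text describes the tumours as biological replicates, so p-values set the group difference against the spread between tumours of the same group. On counts simulated from this comparison (14392 genes), altered genes were drawn from those with a mean above 50 counts. The test found 7 of 50 altered genes at a 2-fold change, 35 at 4-fold, 44 at 8-fold and 45 at 16-fold. It made 9 false calls.

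Members, lists and tests were chosen with earlier results of these data known. The text names the members, up to 4 genes with the smallest p from each further list, and Slc3a2, Aco1, Ireb2, Nfe2l2, Hmox1, Trf and Hamp. Of the genes this rule takes, 1 is not reported here. The text also names the closest profiles to the member with the smallest p, related sequences, and Spr beside Gch1 and Pts. Alternatives were other scalings and filters, DESeq2 1.42.0, limma 3.58.1 (voom, and log2(FPKM + 1) or log2(FPKM + 0.1)), edgeR's exact test, a replicate block and leaving out each tumour. After the data were seen, a loess correction for transcript length and GC content (span 0.5) and levels per kilobase of the longest transcript were added.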

Additional observations from a re-analysis of the deposited data

How the results depend on the processing

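No member passed an adjusted p of 0.05 in any of the 18 alternatives. Of 180 alternative fold changes of members, 167 kept their sign. Those of Lpcat3 turned with library-size scaling (0.010), on log2(FPKM + 1) (0.042) and log2(FPKM + 0.1) (0.056), and without sensitive tumour 2 (0.21) or resistant tumour 3 (0.0026). Those of Fth1 turned with library-size scaling (0.041), on both FPKM scales (0.030 each), and without sensitive tumour 1 (0.11), sensitive tumour 2 (0.0015) or resistant tumour 1 (0.14). Without sensitive tumour 2, Tfrc turned to -0.061 and Slc40a1 to 0.60. Leaving out single tumours gave -0.25 to 0.21 for Lpcat3, -0.061 to 0.24 for Tfrc, -0.25 to 0.14 for Fth1 and -2.36 to 0.60 for Slc40a1. The cause was not tested. Over all genes, DESeq2 called 108 and edgeR's exact test 42 against 0, and leaving out single tumours gave 0 calls each time, with 631 to 2666 genes at an unadjusted p under 0.05. The member count was 0 without any single tumour. Members whose groups do not overlap numbered 2 to 4 when a tumour was left out, the 4 coming without resistant tumour 3, where 3677 of 14909 genes tested did not overlap. Over all genes that count ran from 3146 to 5760 with a tumour left out, against 2296 with all 6.

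Library-size scaling moved the median of all genes by 0.08. It took the list medians to 0.12 for lipid supply and to 0.14 for iron sensing. Leaving out single tumours gave medians of -0.07 to 0.19 for glutathione, -0.04 to 0.27 for defence outside GPX4, 0.052 to 0.16 for lipid supply, -0.10 to 0.023 for iron transport, 0.011 to 0.15 for iron sensing, 0.18 to 0.34 for regulators and -1.17 to -0.35 for mitochondrially encoded genes, the last without sensitive tumour 1. Per kilobase of the longest transcript, 2 steps in the order of member levels were free of overlap, against 4 in FPKM.

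With a replicate block, 0 genes and 0 members were called, and Gpx4 had a log2 fold change of 0.69. Slc40a1, raised in both tumours numbered 2, had one of -0.87 ± 0.40 (SE) with the block. Deviations of same-numbered tumours correlated at 0.05, 0.31 and -0.16, within the -0.48 to 0.50 of the other pairs. With 3 tumours a group, these correlations cannot decide whether the numbers pair the tumours. With 3 tumours a group, 7 of 50 simulated 2-fold changes were called. The altered genes were drawn, whatever their spread, from those with a mean above 50 counts. Detection of lower genes, and detection at the spread of Gpx4, was not simulated.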
